A study of Mus musculus with 9 samples.

Results

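The study did not deplete sperm from the mouse epididymis before the tissue was dissociated. The deposited table counts unique molecular identifiers (UMIs, the tags by which each captured transcript is counted once) in 44869 cell barcodes. Of these, 341 were chosen as sperm barcodes. A barcode was a sperm barcode when at least 3 of the 4 genes Prm1, Prm2, Ldhc and Fabp9 were detected in it with 10 or more UMIs in all, among the 42087 barcodes that held between 300 and 4000 genes, under 50% of mitochondrial UMIs and not above 20000 UMIs. These 4 genes chose the barcodes, so their levels, and the levels of any gene in sperm against other barcodes, are given as a description with no test. The name sperm barcode states the rule only. Of the 341 barcodes, 68 were of a kind with transcripts of meiotic cells and round spermatids. In 126, under 5% of the UMIs came from genes enriched in sperm barcodes, as defined below. The tissue came from wild-type C57Bl/6J mice at 42 days (P42) or 56 days (P56) of age, and each library pooled the caput, the corpus or the cauda of 5 mice. There was 1 pool at P42 and there were 2 pools at P56, called replicate 1 and replicate 2, so the data comprised 9 libraries and each segment had 1 library at P42. The 3 segments of a pool came from the same animals.

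Sperm leave the testis with a condensed nucleus in which histones were replaced first by transition proteins (Tnp1, Tnp2) and then by protamines (Prm1, Prm2), and transcription stops during that exchange. The RNA that sperm carry into the epididymis was therefore made earlier, in spermatids, and much of it encodes proteins of the nucleus, the tail and the acrosome. Sperm gain motility and the ability to fertilize while they pass from the caput through the corpus to the cauda, where they are stored. Round spermatids and meiotic germ cells belong to the testis and are not a usual population of the epididymal lumen.

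Several of the genes that pack sperm DNA lie side by side. Tnp2, Prm3, Prm2 and Prm1 occupy 17904 bases of mouse chromosome 16, chr16:10787936-10805839 (GRCm38, Gencode), all on the minus strand, and Tnp1 lies on chromosome 1. Their upstream sequences are shown because they encode the packing of the sperm nucleus and because Tnp1, Prm1, Tnp2 and Prm3 were among the 20 genes of highest ratio in sperm barcodes (Prm2 was not), and Gapdhs, the glycolytic enzyme particular to sperm, is added as a tail gene. Each line holds the 100 bases from position 150 to position 51 before the RefSeq transcription start, read 5′ to 3′ on the strand of the gene (RefSeq, GRCm38.p6). Capitals mark matches to the cAMP response element, TGACGTCA, with at most 1 different letter; the element is its own reverse complement, so that both strands were searched. The windows are chr16:10796874-10796973 (Prm1), chr16:10792156-10792255 (Prm2), chr16:10790965-10791064 (Prm3), chr16:10788706-10788805 (Tnp2), chr1:73015950-73016049 (Tnp1) and chr7:30743732-30743831 (Gapdhs, the first of 2 windows), each on the minus strand. Part of the Prm1 window is exonic in a longer Gencode transcript, and the other windows lie outside the exons of their genes.
Prm1: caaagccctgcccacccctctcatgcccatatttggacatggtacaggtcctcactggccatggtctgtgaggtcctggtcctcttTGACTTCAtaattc
Prm2: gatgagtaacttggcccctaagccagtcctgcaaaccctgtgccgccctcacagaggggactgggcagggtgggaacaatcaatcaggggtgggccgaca
Prm3: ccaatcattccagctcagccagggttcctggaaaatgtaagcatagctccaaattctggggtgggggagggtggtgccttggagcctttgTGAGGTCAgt
Tnp2: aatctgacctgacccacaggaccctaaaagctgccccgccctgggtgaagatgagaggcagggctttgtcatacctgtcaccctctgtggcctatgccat
Tnp1: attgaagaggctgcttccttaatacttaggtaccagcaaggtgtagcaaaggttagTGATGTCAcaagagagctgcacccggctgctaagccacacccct
Gapdhs: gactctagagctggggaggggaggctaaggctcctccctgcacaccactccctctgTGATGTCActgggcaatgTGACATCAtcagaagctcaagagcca
The windows of Prm1, Prm3 and Tnp1 held 1 match each and that of Gapdhs held 2, while none was found in those of Prm2 and Tnp2. Gapdhs was picked among several sperm genes searched, with its matches known: the same 100 bases of Akap4, Smcp, Meig1, Ldhc and Acrv1, which are not printed, held none, and Akap4 held 1 match elsewhere in the 250 bases before 1 of its 2 starts. Over the 250 bases before the start, 22.2% of the 1299 sperm-enriched genes with a RefSeq window (of 1723, defined below) held such a match, against 14.1% of 5775 genes that were measured in sperm barcodes without being enriched and 12.1% of all 27025 genes. The exact element, with all 8 letters, was in 2.39%, 3.41% and 1.77% of the same sets, so the sperm-enriched genes were above the genes measured without being enriched only with 1 letter free.

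Sperm barcodes were few and were spread unevenly over the libraries. In the caput there were 2 among 4209 kept barcodes at P42 (0.0475%), 22 among 4868 in P56 replicate 1 (0.452%, exact 95% interval 0.283 to 0.683%) and 198 among 4910 in P56 replicate 2 (4.03%, 3.50 to 4.62%). In the corpus there were 47 among 4562 at P42 (1.03%, 0.758 to 1.37%), 29 among 4726 in replicate 1 (0.614%) and 28 among 4490 in replicate 2 (0.624%). In the cauda there were 14 among 4590 at P42 (0.305%), 0 among 4858 in replicate 1 (exact interval 0 to 0.0759%; a count of 0 taken as 3 counts allows up to 0.0618%), and 1 among 4874 in replicate 2 (0.0205%). The caput of P56 replicate 2 thus held 58.1% of all sperm barcodes. These intervals cover counting error only.

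The share averaged 1.51% over the caput, 0.756% over the corpus and 0.109% over the cauda libraries, and these means did not differ beyond the spread between pools (exact permutation of the segments within pools, two-sided, p = 0.583 over 216 arrangements, with 0.0278 the smallest p that this design allows). Without P56 replicate 2 the order changed, to 0.250% (caput), 0.822% (corpus) and 0.153% (cauda). The shares also depended on depth. With each barcode thinned to 1000 UMIs and a limit of 4 marker UMIs, the means were 0.518% (caput), 0.380% (corpus) and 0.0713% (cauda). The caput of P56 replicate 2 then stood at 1.28%. The share counts barcodes after dissociation and loading of the chip, so it is not a count of sperm in the duct.

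**Figure D1:**
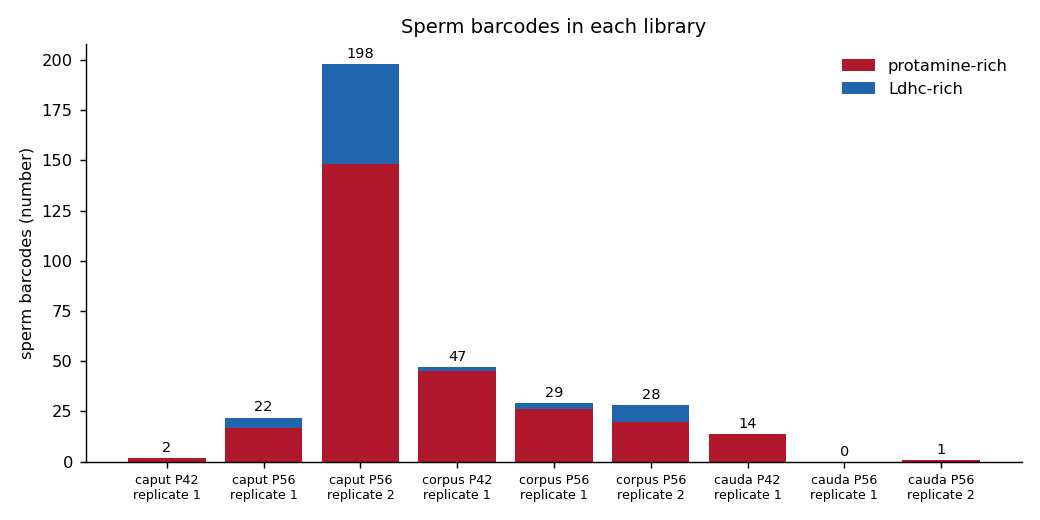
Number of sperm barcodes (y axis) in each of the 9 libraries (x axis), divided into protamine-rich and Ldhc-rich barcodes. The caput of P56 replicate 2 holds 198 of the 341 barcodes, and the 3 cauda libraries hold 14, 0 and 1.

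The 6 libraries with at least 10 sperm barcodes (22, 198, 47, 29, 28 and 14 barcodes, in the order caput P56 replicates 1 and 2, corpus P42, corpus P56 replicates 1 and 2, cauda P42) held 338 of the 341, and library values below are given in this order. Levels are in CPM, the UMIs of a gene summed over the sperm barcodes of a library and scaled by the total UMIs of that sum. The depth of the sperm sums ran from 56801 UMIs in the cauda of P42 mice to 1464690 in the caput of P56 replicate 2. The median sperm barcode held 6133 UMIs and the median of the 41746 other barcodes 5550. In the table, 143 barcode sequences occurred in more than 1 library, of which 1 sperm barcode carried one, and no sequence was shared by sperm barcodes of different libraries. No doublet caller was used.

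The protamines Prm1 and Prm2 were part of the rule, so that their levels were fixed by it to be high. Prm1 stood at 7946, 6306, 17831, 13553, 4397 and 11725 CPM in sperm barcodes and between 20.1 and 51.1 CPM in all other barcodes. Prm2 stood at 4381, 4935, 13825, 6041, 4504 and 13134 CPM. Both protamines were lowest, among the corpus libraries, in P56 replicate 2, and the caput and corpus ranges overlapped for each of them. The label sperm was checked on genes that the rule did not use. Tnp1, which precedes the protamines on DNA, stood at 1562, 1253, 1804, 1292, 611 and 563 CPM in sperm barcodes, against 3.46 CPM on average elsewhere. Tnp2 stood at 1005, 890, 1562, 1035, 359 and 1356 CPM.

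Genes at 4 or more times the mean CPM of the other barcodes with at least 20 UMIs in sperm barcodes are called sperm-enriched here. They numbered 1723 of 9162 genes with at least 20 UMIs, or 18.8%, and 591 of them were higher than in the other barcodes in each of the 6 libraries. Of 192 genes on lists of sperm transcripts, 163 were among them. Both numbers include the 4 selection genes, whose high level the rule fixed. The ratio was 545 for H2al3 and 301 for H2al2a, histone H2A variants of the condensing spermatid nucleus, 341 for Tnp1, 337 for Prm1, 316 for Tnp2, 265 for Prm3 and 262 for Hmgb4, a chromatin protein of the male germ line. High ratios without a described role were those of 1700016P04Rik (347), Gm9059 (326) and Gm16226 (322).

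Beside these genes a sperm barcode held much other RNA. Sperm-enriched genes, the 4 selection genes included, gave 13.1% of the UMIs of all sperm barcodes and 0.519% of those of other barcodes. Over single barcodes their share ran from 0.637 to 63.7% with a median of 7.65%, and 99 of 341 barcodes were above 20%. The library medians were 11.1, 6.41, 15.3, 4.57, 7.16 and 16.3%. Genes of principal cells, the main secretory cells of the epididymal epithelium, gave 14.2, 13.1, 2.00, 4.99, 3.63 and 0.725% of the UMIs of sperm barcodes and 22.4, 19.5, 2.80, 6.02, 5.19 and 1.51% of those of the other barcodes, so that they were lower in sperm barcodes in each of the 6 libraries and present in all. Of 35 principal cell genes none was sperm-enriched, and their median ratio was 0.677. The haemoglobin genes and Alas2 were higher in sperm than in other barcodes in 4 libraries, among them the P42 corpus (6.29 against 4.13%) and the corpus of P56 replicate 1 (2.16 against 0.457%), and lower in the caput of P56 replicate 1 (0.0674 against 0.309%) and in the cauda (0.576 against 1.52%). Genes of myoid cells and fibroblasts were higher in sperm barcodes in the cauda (4.82 against 4.18%) and the caput of P56 replicate 2 (0.0697 against 0.0596%) and lower in the other 4 libraries. The part of doublets and of free RNA in these levels was not tested.

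**Figure D2:**
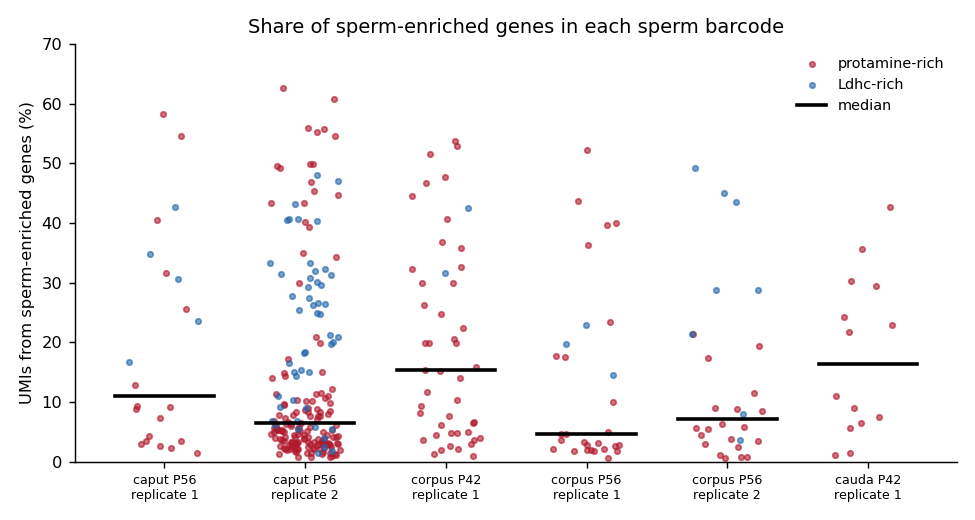
Percentage of the UMIs of each sperm barcode that came from sperm-enriched genes (y axis) in the 6 libraries with at least 10 sperm barcodes (x axis), with protamine-rich and Ldhc-rich barcodes in separate colours and a bar at each library's median. Medians lie between 4.57% and 16.3%, and single barcodes reach 63.7%.

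The share of a transcript's UMIs in kept barcodes that lay inside sperm barcodes differed between genes. For Prm1 it was 59.4 to 84.3% in the 6 libraries and for Prm2 32.7 to 67.1%, which the rule set high. For Tnp1, which the rule did not use, it was 62.8 to 88.1%, although sperm barcodes were at most 4.03% of the barcodes. For Smcp, a cysteine-rich protein of the mitochondrial capsule in the sperm midpiece, it was 9.08 to 56.1%, and for Odf1, of the outer dense fibres of the tail, 3.11 to 44.9%. For both tail genes the caput libraries were the highest. Of the other barcodes of these libraries, 16.0 to 51.0% held at least 1 UMI of the 4 selection genes, with the top value in the caput of P56 replicate 2, so single UMIs of these genes did not mark a sperm barcode.

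Sperm barcodes fell into 2 kinds by the balance of the selection genes. In 273 barcodes the protamines Prm1 and Prm2 gave 50% or more of the UMIs of the 4 genes (protamine-rich, median 95.1%), and in 68 barcodes Ldhc, the lactate dehydrogenase subunit of male germ cells, and Fabp9, a fatty acid binding protein of the testis, gave the larger part (Ldhc-rich, median protamine share 3.28%). Only 8 barcodes lay between 30 and 70%. Ldhc-rich barcodes numbered 5 of 22 and 50 of 198 in the P56 caput, 2 of 47 in the P42 corpus, 3 of 29 and 8 of 28 in the P56 corpus, and 0 of 14 in the P42 cauda. The rule asked for 3 of the 4 genes, so each of them needed at least 1 protamine UMI. Barcodes with 10 or more UMIs, mostly of Ldhc and Fabp9, but with too few genes numbered 8 in the P42 caput and 18 and 46 in the P56 caput. In the corpus they numbered 5 at P42 and 4 and 4 at P56, so the Ldhc-rich shares depend on the rule. The median Ldhc-rich barcode held 7444.5 UMIs and 2883 genes, and the median protamine-rich barcode 5831 UMIs and 2019 genes. Sperm-enriched genes gave a median of 24.9% of the UMIs of the Ldhc-rich kind and 5.71% of the protamine-rich kind.

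**Figure D3:**
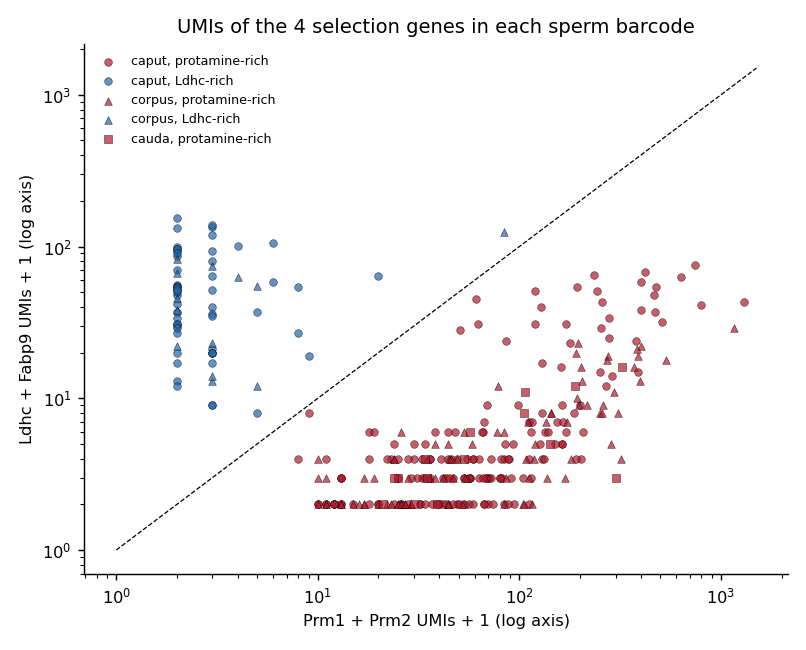
UMIs of Prm1 and Prm2 (x axis, log scale, plus 1) against UMIs of Ldhc and Fabp9 (y axis, log scale, plus 1) in each of the 341 sperm barcodes, by segment and kind, with the line of equal counts. The points form a group below and a group above the line, with 8 barcodes between 30 and 70% of protamine UMIs.

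The 2 kinds carried different germ cell genes. The kinds were chosen on the same barcodes, so these values have no test. Summed over barcodes, Tnp1 stood at 1706 CPM in the protamine-rich and 263 CPM in the Ldhc-rich kind, Tnp2 at 1262 and 87.0 CPM, and Smcp at 4012 and 1323 CPM. In the corpus of P56 replicate 2, with 8 Ldhc-rich barcodes, Tnp1 had the opposite order, at 510 CPM in the protamine-rich and 820 CPM in the Ldhc-rich kind, as did Gapdhs at 221 and 284 CPM. Akap4, the main protein of the fibrous sheath of the tail, stood over all barcodes at 402 and 88.8 CPM and Gapdhs at 376 and 105 CPM. The order was the other way for Meig1, which takes part in building the sperm tail, at 392 and 3115 CPM, and for Ropn1l, of the fibrous sheath, at 158 and 1530 CPM. Clgn, a chaperone of spermatocytes and spermatids that sperm need to bind the egg, stood at 50.2 and 1200 CPM. Sycp3, of the axis of meiotic chromosomes, had 2 UMIs in the 273 protamine-rich and 38 UMIs in the 68 Ldhc-rich barcodes. Piwil1, which acts in the piRNA pathway of spermatocytes and round spermatids, had 0 and 35. Most of the Ldhc-rich UMIs of both genes came from 1 library, the caput of P56 replicate 2, with 31 of Sycp3 and 34 of Piwil1. The 8 Ldhc-rich barcodes of the corpus of P56 replicate 2 held 4 and 0.

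The lists were counted by role in the same manner, and genes with fewer than 20 UMIs were left out. Sperm-enriched genes gave a median of 24.9% of the UMIs of the Ldhc-rich and 5.71% of those of the protamine-rich kind. The part of this difference in the counts was not tested, and the same count over all sperm-enriched genes was not made. Of 17 genes of earlier germ cells, 16 were higher in the Ldhc-rich kind, 15 of them at 2 or more times the level. Of 35 genes of the acrosome and of egg binding, 32 were higher there, among them Acrv1 (30.9 and 210 CPM), Zpbp (21.6 and 404 CPM) and Spaca1 (17.5 and 165 CPM), which are proteins of the acrosome. Of 44 genes of the fibrous sheath, outer dense fibres and axoneme, 35 were higher in the Ldhc-rich kind, and the exceptions included Odf1 (77.7 and 27.2 CPM). Of 21 genes of ion channels and signalling, 18 were higher in the Ldhc-rich kind, among them Catsperz (40.3 and 664 CPM), of the calcium channel of the tail, while Tssk6, a kinase of late spermatids, was not (189 and 32.6 CPM). Of 17 genes of energy metabolism, 13 were higher there. Of 10 genes of sperm chromatin, 7 were higher in the protamine-rich kind. The 44 other late spermatid genes were divided evenly, 22 and 22.

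The protamine-rich kind held transcripts of late spermatids and sperm, but these were a small part of its RNA. The median barcode of this kind had 5.71% of its UMIs from sperm-enriched genes, and 121 of 273 had under 5%. The Ldhc-rich kind held the transcripts of meiotic cells and round spermatids with little protamine RNA, which goes against a plain reading of the label, and it is called by its leading gene here. Whether these 68 barcodes came from the lumen or from testis tissue in the dissection cannot be told apart with the labels. Of 34 principal cell genes, 33 were higher in the protamine-rich kind, where that list gave 11.3% of the UMIs against 7.76% in the Ldhc-rich kind. This was not particular to principal cells. All 8 basal, all 8 clear and narrow, all 8 macrophage and 7 of 8 myoid and fibroblast genes were higher there, too. All 9 ciliated cell genes were higher in the Ldhc-rich kind. The same count over all genes was not made.

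**Figure D4:**
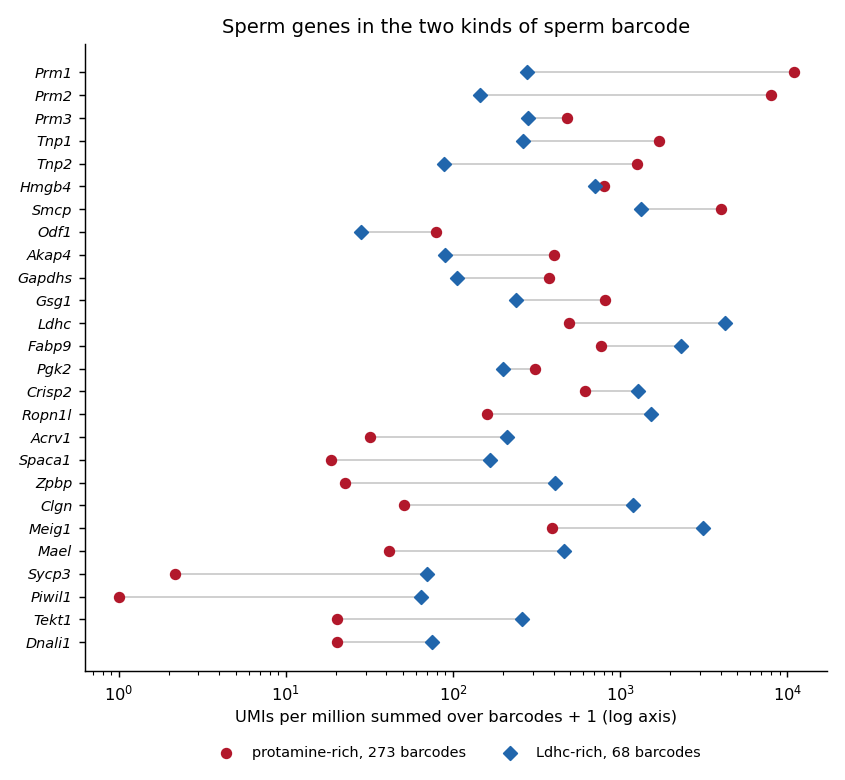
Level of sperm and germ cell genes (x axis, CPM plus 1, log scale) summed over the 273 protamine-rich and the 68 Ldhc-rich barcodes, 1 gene per line. Tnp2 stands at 1262 and 87.0 CPM and Clgn at 50.2 and 1200 CPM, so that the order of the symbols turns from the nuclear to the meiotic genes.

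Barcodes near the limits of the rule were also counted. In 286 kept barcodes the 4 genes summed to 10 or more UMIs with fewer than 3 genes detected, and these were mostly protamine in 201 and mostly Ldhc and Fabp9 in 85. In the cauda the 3 libraries held 23, 2 and 6 such barcodes, all of them protamine. Just inside the limit on UMIs, 19 sperm barcodes with 10 to 12 UMIs had a median of 1.53% of UMIs from sperm-enriched genes. Just outside it, 36 barcodes with 7 to 9 UMIs and at least 3 genes had a median of 1.43%. Among single genes of the rule, Prm1 was detected in 311, Prm2 in 315, Fabp9 in 316 and Ldhc in 205 of the 341 barcodes.

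Transcripts of the motile cilium are shared by sperm and by the ciliated barcodes of the caput, of which there were 74 at P42 and 17 and 60 in the P56 replicates and none elsewhere. The 87 motile cilium genes gave 0.492% of the UMIs of sperm barcodes (0.163% in the protamine-rich and 1.52% in the Ldhc-rich kind), 0.674% of those of ciliated barcodes and 0.0398% of those of all other barcodes. All 61 with at least 20 UMIs were higher in the Ldhc-rich than in the protamine-rich kind, such as Tekt1, a filament protein inside the microtubule doublets, at 259 and 19.3 CPM. The part of the larger share of sperm-enriched genes in the Ldhc-rich kind was not tested here either.

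The corpus was compared with the caput to ask whether the RNA of sperm differed between the segments they pass through. No sperm-enriched gene was called, while genes of the epididymal epithelium were called in large numbers in the same barcodes. UMIs were summed per library over the sperm barcodes, and in edgeR's quasi-likelihood test, which held the pool as a block, a gene was called when its log2 fold change reached 1 in size with p under 0.05 after Benjamini-Hochberg adjustment over 4380 genes. It called 205 genes (4.68%), of which 119 were higher (2.72%) and 86 lower (1.96%) in the corpus. With this block the contrast rests on the P56 pools alone, since the P42 caput had too few sperm barcodes to enter. Of 869 sperm-enriched genes tested 0 were called, with 25 at an unadjusted p under 0.05. DESeq2 called 0 of them, too, while 2 were lower without the block (Cypt1 and Cypt12) and 2 without TMM factors (Cypt1 and Dkkl1). The median log2 fold change was -0.39 over the sperm-enriched genes and -0.11 over all genes. None of 139 tested genes on the sperm lists, the 4 selection genes among them, was called.

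Prm1 differed by a log2 fold change of 0.33 ± 0.62 (SE), Prm2 by 0.37 ± 0.58, Tnp1 by -0.45 ± 0.45 and Tnp2 by -0.42 ± 0.46 between corpus and caput, each within about 1 SE of 0. Smcp differed by 0.18 ± 0.52, Akap4 by -0.38 ± 0.45, Odf2, of the outer dense fibres, by -0.15 ± 0.44 and Gapdhs by 0.56 ± 0.45. The standard errors leave room for changes of the size of a log2 fold change of 1, so these values do not show that the levels were alike. Clgn had the value -1.14 ± 0.53 and did not pass the adjusted threshold (edgeR's quasi-likelihood test, adjusted p = 0.353). Prm1 and Prm2 here, and Ldhc at -1.10 ± 0.49, are genes of the rule and are given as a description.

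The called genes with the largest changes included beta-defensins, lipocalins and other secreted proteins known from the epididymal epithelium. Higher in the corpus were the beta-defensins Defb22 (0 and 4.78 CPM in the caput libraries; 968, 1764 and 1724 CPM in the corpus), Defb26, Defb38 and Defb40, the neuropeptide gene Npy (6.48 and 4.10; 598, 1935 and 1672 CPM), Pate1 (0 and 4.78; 662, 1728 and 1462 CPM), Bsph2, a binder of sperm membranes (0 and 4.78; 731, 1485 and 1067 CPM), and Ltf, lactoferrin, with no UMI in the caput and at least 96.5-fold higher in the corpus against 3 counts over the group. Defb26 had no UMI in the caput either and was at least 49.7-fold higher. Defb40, with 3 UMIs in the caput, was 198-fold higher with a counting interval of 66.7 to 967. In all 3 corpus libraries these genes were above both caput libraries.

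Lower in the corpus were Pate5 (3409 and 3252 CPM in the caput, and 1 UMI in the corpus), Cst12, a cystatin (2158 and 1639 CPM, and 0 UMIs, at least 312-fold lower), Ly6g5c (1704 and 1748 CPM, and 1 UMI), Ly6g5b (771 and 804 CPM, and 0 UMIs, at least 148-fold lower), Slc38a5, an amino acid transporter (810 and 493 CPM, and 2 UMIs), Lcn10, a lipocalin (at least 103-fold lower), Defb45 (at least 62.8-fold lower) and Cryba4 (1 UMI). The ratio for Pate5 was 1810 with a counting interval of 325 to 71488.

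The other barcodes of the same libraries were set beside these values. Defb22 stood at 3.01 and 11.7 CPM in the other barcodes of the caput and at 1305, 2781 and 2567 CPM in those of the corpus, and its log2 fold change was 8.83 ± 0.69 (SE) in sperm and 8.95 in the other barcodes. Npy had 8.65 ± 0.67 and 7.83, and Bsph2 8.21 ± 0.66 and 8.78. Among 33 tested genes of principal cells, 19 were called lower and 5 higher in the corpus, and of 4 tested erythroid genes 3 were called higher, such as Hba-a1 with a log2 fold change of 3.58 ± 0.79 in sperm and 0.50 in the other barcodes. In these summed counts a change in sperm RNA and a change in the RNA of other cells held by the same barcodes cannot be told apart.

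**Figure D5:**
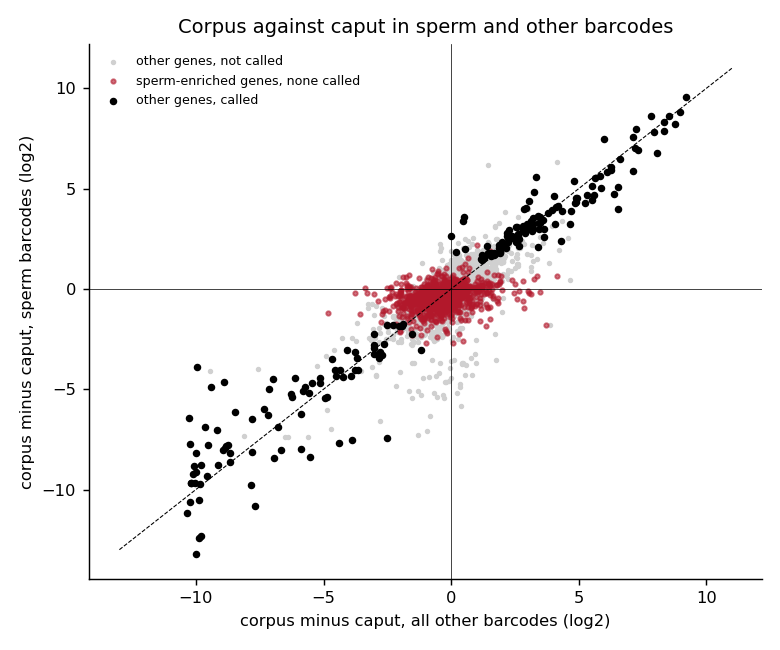
Log2 fold change of the corpus against the caput in sperm barcodes (y axis) against that in all other barcodes of the same libraries (x axis), 1 point per gene, with the line of equal values. Of the 205 called genes, in black, Defb22 lies at 8.83 in sperm and 8.95 in the other barcodes and Hba-a1 at 3.58 and 0.50, and the 869 sperm-enriched genes, none of them called, are drawn apart.

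The protamine-rich barcodes alone gave another picture of the sperm-enriched genes, and this comparison was added after the 2 kinds were seen. Among 3177 genes tested, 624 were called (19.6%), 251 higher (7.90%) and 373 lower (11.7%) in the corpus. Of 478 sperm-enriched genes tested 150 were lower and 0 higher, and their median log2 fold change was -1.03, against -0.18 over all genes. The sperm-enriched genes were chosen on the same sperm barcodes, Ldhc-rich ones included, of which the caput of P56 replicate 2 held most, so that a gene could pass through its caput level alone, and these counts are no independent evidence of the direction. When libraries were scaled by the UMIs of the sperm lists, 110 were lower and 1 was higher, where 8.15% of all genes were lower and 12.2% higher. The call depended on the tool and the block. DESeq2 called 3 of the 478 lower, where 47 of all 3177 genes were lower. Without the block edgeR called 69 of the 478 lower, where 206 of all 3177 genes were. The median protamine share in these barcodes was 92.0 and 95.02% in the caput and 95.7, 95.5 and 94.9% in the corpus.

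The genes named first here were chosen after their values were seen, as those with many UMIs. Cypt4, a cysteine-rich gene of the testis, stood at 1151 and 791 CPM in the protamine-rich barcodes of the caput and at 99.1, 144 and 68.4 CPM in those of the corpus, a log2 fold change of -3.09 ± 0.31 (SE; edgeR's quasi-likelihood test, adjusted p = 3.12e-21; DESeq2, adjusted p = 0.000481). Cypt12 stood at 593 and 324 against 24.8, 120 and 7.60 CPM. Gtsf1, of the piRNA pathway, stood at 358 and 164 against 49.6, 16.0 and 7.60 CPM, with a log2 fold change of -4.31 ± 0.60. Kif2b, a kinesin, stood at 419 and 207 against 24.8, 48.0 and 0 CPM. Hils1, a spermatid linker histone, stood at 515 and 347 against 188, 112 and 15.2 CPM. For each of these 5 genes both caput libraries were above all 3 corpus libraries. DESeq2 called only Cypt4, Gtsf1 and Hils1 of all 478.

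By role, 8 of 11 tested acrosome genes, 9 of 21 of the tail, 9 of 30 other late spermatid genes, 3 of 9 of ion channels and signalling, 2 of 8 of chromatin and 1 of 8 of energy metabolism were lower in protamine-rich barcodes of the corpus, where 11.7% of all genes were, and none was higher. The tested genes were 11 of 37 acrosome genes and 21 of 45 tail genes in the table, the rest being too low. A gene could pass the low-count filter through its caput level alone, so these counts are no independent evidence of the direction or of a difference by role. Ropn1l stood at 305 and 206 against 59.5, 40.0 and 22.8 CPM and Meig1 at 602 and 506 against 183, 184 and 68.4 CPM. Acrv1 stood at 95.9 and 40.1 CPM in the caput and had no UMI in the corpus. Prm1 (log2 fold change 0.12 ± 0.46) and Prm2 (0.19 ± 0.44) chose these barcodes and are given as a description. Smcp (log2 fold change -0.13 ± 0.39), Gsg1, a germ cell membrane gene (-0.10 ± 0.29), and Akap4 (-0.37 ± 0.29) were not called. In the same barcodes 25 of 33 principal cell genes were lower and 5 higher, and all 10 mitochondrial genes tested were higher. Many of the lower genes, such as Meig1 and Ropn1l, were high in the Ldhc-rich barcodes, which made up 22.7 and 25.3% of the sperm barcodes of the caput and 4.26, 10.3 and 28.6% of those of the corpus. The Ldhc-rich barcodes were left out of the sums compared here, and any other link between them and the difference was not tested.

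The cauda entered with 1 library, of 14 protamine-rich barcodes from P42 mice. Against the corpus 71 of 4380 genes were called (1.62%), 30 higher (0.685%) and 41 lower (0.936%) in the cauda, by edgeR's quasi-likelihood test with the pool as a block, and the contrast rests on the P42 pair alone, with the cauda library assumed to vary like the others. The balance of directions depended on the setting, since with sperm-list scaling or without the block more called genes were higher than lower. Higher with the block were the macrophage genes Retnla and Mrc1, the chemokines Ccl6, Ccl12 and Cxcl2, Rgs1, Smpdl3a and Col6a2, a collagen. Retnla had a log2 fold change of 5.32 ± 0.74 in sperm barcodes and 2.01 in the other barcodes. Macrophage genes gave 0.627% of the UMIs of the cauda sperm barcodes and 0.403% of the other cauda barcodes, and genes of myoid cells and fibroblasts gave 4.82 and 4.18%. Lower were genes of the caput and corpus epithelium without a UMI in the cauda sperm barcodes, Lcn5, Defb22, Defb23, Rnase9, Bsph2, Spint4, Spink11 and Defb30. Within the P42 pair, against 3 counts in the cauda library, they were lower by at least 9.43-fold (Defb30) to at least 22.5-fold (Lcn5).

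Of 869 sperm-enriched genes 6 were lower in the cauda than in the corpus, by this test, and none was higher, a share under the 0.936% of all genes that were lower. The P42 corpus held 2 Ldhc-rich barcodes and the cauda none, and these 2 barcodes carried part of the corpus levels. Over all sperm barcodes of the P42 corpus Ropn1l stood at 311 CPM, Cypt4 at 233 CPM and Cylc2, of the cytoskeleton around the sperm nucleus, at 215 CPM, and none had a UMI in the cauda, where 3 counts would be 52.8 CPM. In the protamine-rich barcodes of the P42 corpus they stood at 59.5, 99.1 and 154 CPM. Meig1 stood at 484 CPM over all barcodes and 183 CPM in the protamine-rich barcodes of the P42 corpus, and at 52.8 CPM (3 UMIs) in the cauda. Gkap1 stood at 370 and 79.3 CPM, and at 17.6 CPM (1 UMI) in the cauda. In protamine-rich barcodes alone 28 of 478 sperm-enriched genes were lower in the cauda, where 5.76% of all genes were, which is about the same share, and Cypt4 and Cylc2 were among them while Ropn1l, Gkap1 and Meig1 were not. With sperm-list scaling 1 of the 478 was lower (Cylc2) and 2 were higher (1700092M07Rik and Ifi209), where 1.73% of all genes were lower and 8.94% higher. The sixth, Ldhc, was a gene of the rule and its value is a description. No sperm-enriched gene was called by DESeq2 (23 at an unadjusted p under 0.05) or when libraries were scaled by the sperm lists (52), where 1.53% of all genes were called. In the P42 pair, Prm1 stood at 17831 CPM in the corpus and 11725 CPM in the cauda, Prm2 at 13825 and 13134 CPM, and Gapdhs at 987 and 916 CPM. Tnp1 stood at 1804 and 563 CPM and was not called over all sperm barcodes. In protamine-rich barcodes alone it stood at 1937 and 563 CPM and was called lower, though not with sperm-list scaling.

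Against the caput 107 genes were called in the cauda (2.44%), 49 higher (1.12%) and 58 lower (1.32%), with 13 of 869 sperm-enriched genes lower, a share near that of all genes, and none higher, among them Meig1, Ropn1 and Hils1, and Ldhc of the rule. No pool had sperm barcodes enough in both segments, so that this contrast goes through the corpus and shares its libraries with the contrasts above. DESeq2 called 2 of the 869, Ldhc and Ropn1l, and with libraries scaled by the sperm lists 1 was called, Ropn1l, where 1.62% of all genes were. Without the block 70 were lower and 4 higher, where 4.61% of all genes were lower and 5.87% higher. In protamine-rich barcodes alone, the only kind in the cauda library, 81 of 478 were lower, where 6.55% of all genes were, and 31 with sperm-list scaling, where 2.86% of all genes were. Here, too, a gene could pass as sperm-enriched through its caput level alone, so that these counts are no independent evidence of the direction.

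Age was compared in the corpus, the only segment with enough sperm barcodes at both ages, to ask whether the first sperm to reach the epididymis differ from those of adults. The P42 group was 1 library, and its spread was taken from the pairs of P56 libraries. Of 4380 genes 16 were called (0.365%), all lower at P56. Of these 7 were sperm-enriched and 8 of the others were Col1a1, Col1a2, Col3a1 and Sparc of the extracellular matrix, with Vim, Igf1, Cxcl12 and Nfia. Akap4 stood at 881 CPM at P42 and at 193 and 200 CPM at P56, a log2 fold change of -2.05 ± 0.42 (SE; edgeR's quasi-likelihood test, adjusted p = 0.0186). Tcp11, a testis protein of the sperm tail, stood at 1361 CPM and at 229 and 405 CPM (-1.98 ± 0.41), Gapdhs at 987 CPM and at 243 and 241 CPM (-1.91 ± 0.41), Spata3 at 863 CPM and at 179 and 262 CPM (-1.85 ± 0.41), and Tppp2, a tubulin-binding protein of sperm, at 671 CPM and at 143 and 200 CPM (-1.84 ± 0.42). The other 2 sperm-enriched genes were 4933411K16Rik (-2.32 ± 0.47) and 4930570D08Rik (-2.16 ± 0.47). For all 7 the P42 library was above both P56 libraries.

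This result depended on the scale. The sperm lists without the 4 markers gave 4.01% of the UMIs of the P42 corpus sperm barcodes and 1.75 and 2.66% of those at P56. The 4 markers themselves gave 3.35% at P42 and 2.07 and 1.17% at P56. The scaling used the full sperm lists, with the 4 markers in them, so it rests in part on the genes of the rule. When libraries were scaled by these lists, the median over all genes moved from 0.04 to 0.86 on the log2 scale, 55 genes were called (1.26%), 47 of them higher (1.07%) and 8 lower (0.183%), and none of the 7 genes was called. Akap4 then had a log2 fold change of -1.22 ± 0.53 (edgeR's quasi-likelihood test, adjusted p = 0.19), and 13 sperm-enriched genes were higher, among them Spaca7 and Eqtn of the acrosome, which had no UMI in the P42 library and 18 and 13 UMIs in P56 replicate 2. That library held 8 Ldhc-rich barcodes of 28 and the P42 library 2 of 47, and in protamine-rich barcodes alone, with the same scaling, 1 sperm-enriched gene was higher (Serf1), where 2.3% of all genes were, and none was lower. On the total scale the protamine-rich barcodes had 24 of 478 sperm-enriched genes lower at P56, where 1.13% of all genes were, among them Akap4, Gapdhs, Tcp11 and Spata3. DESeq2 called 4 genes and none of them sperm-enriched (27 at an unadjusted p under 0.05). No sperm-enriched gene was called with at least 20 marker UMIs or with all libraries that had a sperm barcode, either. Without the corpus of P56 replicate 2, 0 genes were called, with 391 at an unadjusted p under 0.05, and without that of replicate 1, 47 were called, 23 higher and 24 lower, with 15 sperm-enriched genes higher and 5 lower, so that the direction was no longer one-sided.

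Collagen genes moved with age in the other barcodes, too. Col1a1 stood at 722 CPM in the P42 corpus sperm barcodes and at 42.8 and 30.8 CPM at P56, a log2 fold change of -4.19 ± 0.57 in sperm and -4.10 in the other barcodes. Genes of myoid cells and fibroblasts gave 0.385% of the UMIs of the sperm barcodes of the P42 corpus and 0.0671 and 0.0559% of those at P56, where Col1a1 and Col3a1 were detected in every library. The part of these cells in the result was not tested.

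Mitochondrial transcripts were compared, too. They gave 5.66 and 5.93% of the UMIs of sperm barcodes in the P56 caput and 6.89 and 6.55% of those of other barcodes. In the corpus the values were 10.995, 17.8 and 19.2% in sperm and 14.7, 18.6 and 23.1% in other barcodes, and in the P42 cauda 8.69 and 10.4%. By these sums sperm barcodes were below the other barcodes in each of these 6 libraries. As medians over barcodes they were above the others in the corpus of P56 replicate 1 (19.4 against 18.7%) and in the P42 cauda (10.9 against 10.8%). In the rest they were below by medians as well. Over the 8 libraries with a sperm barcode the means were 5.01% (caput), 16.0% (corpus) and 15.3% (cauda; exact permutation within pools, two-sided, p = 0.0833 over 72 arrangements, where the smallest p that this design allows is 0.0278). The cauda mean includes a library with a single sperm barcode, and over the 6 libraries above p was 0.375 by the same exact test, which can give no less than 0.125. With the median over barcodes in each of the 8 libraries the means were 4.82% (caput), 16.8% (corpus) and 16.4% (cauda). By the exact test p was then 0.0278, so the outcome depended on the summary used.

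The difference between sperm and other barcodes was itself compared between segments. Of 19629 genes tested on the ratio of sperm to other barcodes, 0 were called (0%) between the cauda and the caput by edgeR's quasi-likelihood test after Benjamini-Hochberg adjustment, with 259 at an unadjusted p under 0.05, and 8 were called without TMM factors. Between the corpus and the caput, a contrast added after seeing the data, 12 were called (0.0611%), of which 5 were sperm-enriched. Spata3 stood at 227 and 268 CPM in sperm barcodes of the caput and at 863, 179 and 262 CPM in those of the corpus, while in the other barcodes it stood at 75.1 and 74.1 CPM in the caput and at 9.63, 11.4 and 3.07 CPM in the corpus. Its sperm levels overlapped between the segments and its levels elsewhere did not.

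The share of UMIs from the sperm lists without the 4 markers was 3.50, 2.68, 4.01, 1.75, 2.66 and 2.47% in the 6 libraries, against 0.0773 to 0.145% in their other barcodes. The means over 8 libraries were 3.76% (caput), 2.81% (corpus) and 1.44% (cauda) and did not differ beyond the spread between pools (exact permutation within pools, two-sided, p = 0.139).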

How the data were processed

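The deposited table holds UMI counts per gene and barcode, which the authors made from microfluidic-chip single-cell libraries (Singleron GEXSCOPE) with STAR 2.7.3a, UMI-tools and featureCounts on GRCm38.p6. The 44869 barcode columns hold 307987941 UMIs over 32195 genes, with 23114756 to 50655384 per library. No doublet caller was run. The members and lists were chosen with earlier results of these data known.

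UMIs were summed per library over sperm barcodes and tested with edgeR 4.0.16 (quasi-likelihood, TMM, R 4.3.3), DESeq2 1.42.0 being an alternative. The 6 libraries with at least 10 sperm barcodes entered, where 9 had been planned, so the contrasts with the pool as a block have 1 residual degree of freedom and that of age, fitted without it, has 2. P-values set a change against the spread between pools of 5 mice. With so few residual degrees of freedom that spread was estimated with information shared over all genes. A very small p-value therefore does not measure the spread of that gene between pools. Pools are paired because the 3 segments of a pool came from the same animals; deviations of caput and corpus sperm from their means had a correlation of -0.286 within pools (2793 genes), and those of other barcodes 0.0922 to 0.166 (18222 genes). Sperm-list scaling sets library sizes by the UMIs of the sperm lists, the 4 selection genes included.

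Named genes were the selection markers, list members, the 8 called genes with the largest fold change in each direction that moved alike in every pool with at least 50 UMIs, over all and over sperm-enriched genes, and the 20 sperm-enriched genes of highest ratio with at least 100 UMIs; others are said to be chosen later. Single values were tested by exact permutation (SciPy 1.17.1). The edgeR fits of corpus against caput and of age were run on simulated counts to check the code, and the outcome is not given here. RefSeq promoters matched 1299 of 1723 sperm-enriched genes. Alternatives were the scaling, low-count filter, UMI limit, thinning, block, tool and leaving out libraries.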

Additional observations from a re-analysis of the deposited data

Results flagged for a closer look

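The ratio of sperm to other barcodes differed between the corpus and the caput, by a test of that difference (edgeR's quasi-likelihood test, Benjamini-Hochberg adjustment over 19629 genes), in 12 genes, a contrast chosen after seeing the data. As log2 changes of the ratio, 5 were sperm-enriched, namely Spata3 (3.76, adjusted p = 6.7e-07), Spaca9 (-3.14, adjusted p = 0.000362), Dgat2 (-2.87), 1700019A02Rik (-3.18) and 1700019D03Rik (-2.44). The other 7 were Tekt5 (-5.32), Erich6 (-5.01), Ccdc74a (-3.98), Prr27 (-3.96), Apod (2.62), Actg2 (4.47) and Cst8 (4.83). Spaca9, of the acrosome, stood in sperm barcodes at 369 and 217 CPM in the caput and at 256, 143 and 267 CPM in the corpus, which overlap, and in the other barcodes at 3.74 and 6.11 CPM and at 25.2, 35.3 and 37.2 CPM. Cst8, a cystatin, stood in sperm barcodes at 5405 and 5538 CPM in the caput and at 196, 136 and 190 CPM in the corpus, and in the other barcodes at 7986 and 7697 CPM and at 19.1, 16.5 and 5.69 CPM.

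Beyond the barcodes used above, 24 of the 2782 barcodes outside the limits on genes, UMIs and mitochondrial share met the marker rule. Of these, 23 were above the limit on genes or UMIs and 1 had 50% or more mitochondrial UMIs. They held a median of 16967 UMIs, 10 were protamine-rich, and 17 came from the caput of P56 replicate 2.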

How the results depend on the processing

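Corpus against caput gave 205 calls, and the same within 1.5 times without the replicate block (239). DESeq2 gave 114, and leaving out P42 gave 126, with only 2793 genes tested. With the block the contrast rests on the P56 pools with or without P42. Leaving out P42 therefore does not test the calls or the values of single genes. Protamine-rich barcodes gave 624, with sperm-list scaling 647, without the block 332, with DESeq2 124 and without P42 476. Cauda against caput gave 107 calls, 459 without the block, 51 by DESeq2, 27 without the low-count filter, 71 with sperm-list scaling, and 323 and, with that scaling, 401 in protamine-rich barcodes. Cauda against corpus gave 71 calls, 220 without the block, 29 by DESeq2, 23 without the filter, and 317 and 339 in protamine-rich barcodes. With the caput pools crossed in the replicate block these contrasts gave 413, 236 and 174 calls. Of 869 sperm-enriched genes 24, 61 and 21 were lower, where 167, 134 and 90 of all 4380 genes were. Age in the corpus gave 16 calls, 4 by DESeq2, 2 with at least 20 marker UMIs, 55 with sperm-list scaling, 44 and 77 in protamine-rich barcodes, 5 with all libraries, and 0 to 47 when single libraries were left out. Without TMM factors the ratio of sperm to other barcodes gave 8 calls in place of 0 for the cauda and 24 in place of 12 for the corpus. The cause of these moves was not tested. The protamine-rich, crossed and all-library settings and the age scaling were chosen after seeing the data.

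By exact permutation, the share of sperm barcodes was highest in the corpus without P56 replicate 2 (p from 0.333 to 0.833 over the pools left out). By the same exact test the mitochondrial share passed as a median over barcodes (p = 0.0278). With a pool left out this test can give no p under 0.167, so that it could not pass. The cauda was highest without P42 or P56 replicate 1, which rests on 1 barcode. Without P42 its value was that of the single sperm barcode of P56 replicate 2 (21.8%). Without P56 replicate 1 the means were 15.3% (cauda) and 15.1% (corpus), and the cauda mean includes that barcode. For 53 pairs of a called gene and a contrast, 475 of the refitted values kept direction and call, 130 lost the call and 0 changed sign. With DESeq2, 25 of the 53 kept the call and 28 lost it. The pairs were picked as called, with the largest changes and alike in every pool, and the refits use the same libraries. The kept signs are therefore no independent support.

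Not run were age in the caput and cauda, leaving out a P56 pool from any fit with the block and P42 from the cauda contrasts, since a group or the residual degrees of freedom were lacking. With 14 sperm barcodes and 56801 UMIs, the depth is lowest in the cauda.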
